A study of Mus musculus with 11 samples.

Results

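The exomes of 5 tumours grown from KPP-eGFP cells were set against the exomes of the same cells in culture, to ask which variants of the cell line were carried into the tumours and at what frequency. The libraries were chosen by their labelled treatment, which gave 3 culture libraries (1-B, 2 and 2-B), 2 immune-inflamed tumours (1-3 and 2-1), 2 immune-excluded tumours (1-4 and 2-2) and 1 immune-desert tumour (2-3), 8 of the 11 libraries of the series. The other 3 are spleen libraries, the source of the normal DNA, and have no calls of their own. KPP-eGFP is a clonal pancreatic ductal adenocarcinoma line from a genetically engineered mouse model that carries a green fluorescent reporter, and every culture and tumour library derives from it. STAMP tumours were seeded by placing these cells in laser-made pores of the mouse ear and were taken 3 weeks later, from male mice that were 8 to 12 weeks old. The labels give no genotype of the mice that carried these tumours, the methods take the spleens from a wild-type strain, and the study describes the biopsies as pooled. The table holds DNA calls and no expression, so the cell type could not be checked against marker genes.

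A variant allele fraction is the share of reads at a position that carry the alternate base. In a diploid region of a pure clone it lies near the middle of its range for a heterozygous change and near 1 for a homozygous change. A tumour biopsy also holds fibroblasts, blood vessels and leukocytes of the host, and their DNA dilutes every fraction of a change that only the tumour cells carry. A caller then misses the rarest changes first, so an absent call alone does not tell a lost variant from a diluted one. The authors kept in the tumours only variants seen in the cell line, and accordingly 0 variants were called in a tumour alone.

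The table held 3265 calls of 621 variants in 304 genes. The calls per library lay between 494 and 548 in culture and between 310 and 399 in the tumours. Read depth is unknown, so no interval can be given for a single fraction. The errors here are spreads between libraries or Wilson 95% intervals of shares of variants. A Wilson interval takes the variants of a library as independent. Many of them lie close together, so it may be too narrow and does not compare tumours. Whether the libraries came from separate cultures and mice is not stated, so a p-value here covers library-to-library spread alone, and that spread may be technical. The median ratio of a tumour's fractions to the culture mean over the 258 variants called in all 8 libraries, here the dilution ratio, was 0.246 ± 0.00235 in inflamed 1-3, 0.295 ± 0.00125 in inflamed 2-1, 0.477 ± 0.00121 in excluded 1-4, 0.278 ± 0.00144 in excluded 2-2 and 0.627 ± 0.00642 in desert 2-3 (SD over the 3 culture libraries as the base). The expected fraction of a variant in a tumour is its culture mean times this ratio, and a scaled fraction is the tumour's fraction divided by that ratio.

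The sequences below are those of the variants with the largest scaled difference in their gene, of 1 of the 5 variants at 1.00 in all 3 culture libraries that no tumour kept, and of the changes that were near 1 in culture and stayed at 0.849 or above in the tumours, with the Tyr change as their diluted counterpart. Each is 29 bases of the plus strand of GRCm38, 5′ to 3′, with the alternate base in capitals at its centre.
Ifna11 A92T, chr4:88820218-88820246: tcttgaacctcttcAcatcaaaggactca
Ifna7 K180N, chr4:88816753-88816781: tcttcctcagccaaCttgctggcaagatt
Ifna1 L14M, chr4:88850112-88850140: tggtcctggcggtgAtgagctactggcca
Ifna6 S186N, chr4:88827958-88827986: gctggcaagactgaAtgaggacgagtgag
Smco2 R76S, chr6:146852642-146852670: tggctgagaagagcAgtgatctccaaaat
Casc1 S60N, chr6:145202939-145202967: tcttttccagcagaTtccacttctctctc
Gm13271 R179*, chr4:88755388-88755416: cactgtctgcgagaTgaggcccaagatga
Sfi1 P1003S, chr11:3134640-3134668: gctgtaccactctgAggacctctgactcc
Tlr13 F448V, chrX:106157986-106158014: tgaagcacttggagGttctctctctttca
Arap2 G230W, chr5:62748973-62749001: tacgccattcgtccAgtttccagaatgtg
Hebp1 V86L, chr6:135152949-135152977: ttcattgggaaacaGggcaaaagagacag
Tyr R77L, chr7:87493107-87493135: agggccaggactcaAggtcatccacccct
The Gm13271 sequence with its alternate base occurs at 2 other places of GRCm38, and the other 11 occur at no other place. With the reference base, the Arap2 and Ifna1 sequences each occur at 1 other place and the Gm13271 sequence at 13.

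Most variants that were called in every library were diluted alike. Of these 258 variants, 210 to 239 per tumour (81.4% to 92.6%) lay within 1.5-fold of the expected fraction. For a culture library around the culture mean the share was 96.9% to 99.2%. A variant that fell further could lose a call and leave this set, and the ratio is the median of the same set. Close agreement is therefore partly built in, and 189 of the 621 variants were called in no tumour. The chromosome 6 block (145138202 to 148425959, GRCm38), where 65 variants had a culture mean of at least 0.9, gave median ratios of 0.246, 0.297, 0.470, 0.287 and 0.649 for those 65 in inflamed 1-3, inflamed 2-1, excluded 1-4, excluded 2-2 and desert 2-3. The chromosome 8 block (77277172 to 92865030), where 103 variants had a culture mean of 0.25 to 0.75, gave 0.242, 0.309, 0.488, 0.282 and 0.633 in the same order. Changes near 1 and changes near 0.4 thus had nearly the same ratio within a tumour. Blocks were defined as 20 or more successive variants, each at 0.25 or above on average in culture and no further than 5 Mb from the next.

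Arap2 G230W and Hebp1 V86L were lowered far less than the dilution ratio gives in each tumour. Arap2 encodes a GTPase-activating protein for Arf, and its change (chromosome 5, position 62748987, coding exon) had a fraction of 1.00 in all 3 culture libraries and of 0.974, 0.849, 0.988, 0.892 and 0.942 in inflamed 1-3, inflamed 2-1, excluded 1-4, excluded 2-2 and desert 2-3. Hebp1 encodes a haem-binding protein, and its change (chromosome 6, position 135152963, coding exon, outside the block) had 0.987, 1.00 and 0.993 in culture and 1.00, 0.923, 0.981, 0.902 and 0.955 in the same tumours. The culture mean times the dilution ratio was 0.246 to 0.627 for Arap2, and the observed fraction was 1.50 to 3.96 times that value. For Hebp1 it was 1.53 to 4.09 times. They were the only 2 of the 258 variants whose lowest tumour fraction was at least 0.8, and in 4 of the 5 tumours they were the only 2 calls with the homozygous genotype 1/1 (126 to 131 such calls in a culture library, 23 in desert 2-3). The fraction listed for the spleen was 0 for both. The expected fraction takes the host cells to lack the change, which the spleen value shows for the spleen donor and which was not checked for the mice that carried the tumours.

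Other changes fixed in culture were lowered with the rest. Tyr encodes tyrosinase, the enzyme of melanin synthesis whose loss gives an albino coat, and its R77L change (chromosome 7, position 87493121, coding exon) had 1.00 in all 3 culture libraries and 0.138, 0.271, 0.574, 0.193 and 0.766 in inflamed 1-3, inflamed 2-1, excluded 1-4, excluded 2-2 and desert 2-3. The R676Q change of 2210408I21Rik (chromosome 13, position 77267816, coding exon) had 1.00 in culture and 0.159, 0.359, 0.489, 0.328 and 0.622. These 2 changes lay at 0.561 to 1.22 times and 0.645 to 1.22 times the expected fraction. Among the 82 other variants with a culture mean of at least 0.9 the highest fraction was 0.333, 0.421, 0.592, 0.414 and 0.875 in the 5 tumours in that order, so no tumour had another such change above its Arap2 and Hebp1 fractions. On the log2 scale of the scaled fraction, limma put both changes above culture, Arap2 by 1.36 (standard error 0.236, adjusted p = 0.000840) and Hebp1 by 1.41 (standard error 0.243, adjusted p = 0.000840), higher in 5 of 5 tumours, where 1.55% of the 258 variants were called higher. On the linear scale, where their scaled fraction ran past 1 and spread widely, neither passed (limma adjusted p = 0.0813 and 0.0935), and without scaling both lay slightly below culture, by -0.0709 and -0.0412. Arap2, Hebp1, Tyr and 2210408I21Rik were picked for description with their values in view.

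**Figure D1:**
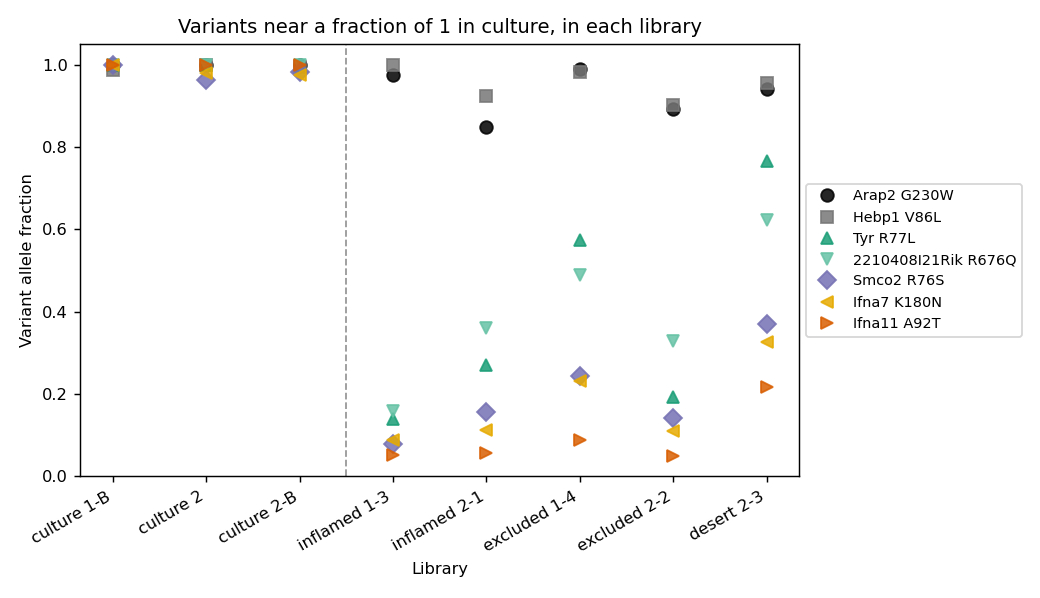
Variant allele fraction (vertical axis) of 7 variants near 1 in culture in each of the 8 libraries (horizontal axis), 1 marker per variant and library, with the culture libraries left of the dashed line. Arap2 G230W and Hebp1 V86L stay at 0.849 or above in all 5 tumours, Tyr R77L and 2210408I21Rik R676Q fall to between 0.138 and 0.766, and Ifna11 A92T falls to between 0.05 and 0.217.

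After scaling, limma called 19 of the 258 variants lower in the tumours than in culture (7.36% of those tested) and 2 higher (0.775%) at an adjusted p under 0.05. All 19 were missense changes, as were 208 of the 258 tested, and all 19 lay below the lowest culture library in 5 of 5 tumours. They fell in the type I interferon cluster of chromosome 4 (13), in Smco2 and Casc1 on chromosome 6 (5) and in Mylk3 on chromosome 8 (1). Some of the 19 lie closer together than the length of a read, so the same reads can cover several of them. Examples are Smco2 R69L, R76S and S87L (positions 146852636, 146852656 and 146852690) and Ifna11 Q72K and S76A (88820172 and 88820184). The same holds for Ifna11 G183A and R186S, Ifna7 V171I and K180N, and both Ifnab changes. The 19 are therefore not independent results. The same 19 were called lower on the log2 scale. An unadjusted limma p under 0.05 was reached by 57 variants, of which 37 were lower and 20 higher.

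Interferon alpha genes encode secreted cytokines that act on 1 shared receptor to induce antiviral and antigen presentation genes, and their tandem copies on mouse chromosome 4 are near-identical in part. Ifna11 held the largest difference. Its A92T change (position 88820232) had 1.00 in each culture library and 0.0504, 0.0570, 0.0876, 0.05 and 0.217 in inflamed 1-3, inflamed 2-1, excluded 1-4, excluded 2-2 and desert 2-3, and it fell by 2.22 on the log2 scale after scaling (limma adjusted p = 1.36e-05). A92T lay at 0.180 to 0.205 times the expected fraction in 4 tumours and at 0.346 times in the desert tumour. Ifna11 G183A (position 88820506) had 0.714, 0.75 and 0.8 in culture and 0.0347, 0.0682, 0.104, 0.0558 and 0.198 in the tumours (scaled difference -0.533, limma adjusted p = 7.27e-07, standard error 0.0489). No tumour reached the lowest culture value for either change, the desert tumour was the highest of the 5 for both, and 5 of the 7 Ifna11 variants tested passed.

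Ifna7 K180N (position 88816767) had 1.00, 0.979 and 0.975 in culture and 0.0891, 0.113, 0.231, 0.109 and 0.326 in the tumours, with a scaled difference of -0.556 (limma adjusted p = 8.53e-07). Ifna1 L14M (position 88850126) had 0.947, 0.968 and 0.956 in culture and 0.0836, 0.0882, 0.220, 0.0921 and 0.314 in the tumours (scaled difference -0.571, limma adjusted p = 1.03e-06). Ifna6 S186N (position 88827972) had 0.897, 0.921 and 0.908 in culture and 0.124, 0.144, 0.271, 0.125 and 0.404 in the tumours (scaled difference -0.378, limma adjusted p = 6.67e-05). For K180N and S186N the tumours stood in the order of their dilution ratios, and for L14M inflamed 2-1 and excluded 2-2 changed places. In all 3 changes no tumour reached the lowest culture value. The remaining 8 lower variants of the cluster, in Ifna11 (Q72K, S76A and R186S), Ifna7 (V171I), Ifna6 (Y153F), Ifnab (S132F and E126Q) and Ifna2 (T19I), had scaled differences from -0.620 to -0.292. Over the 13, the observed fraction was 0.180 to 0.857 times the expected one across the tumours, and the median was 0.381, 0.455, 0.493, 0.400 and 0.536 times in inflamed 1-3, inflamed 2-1, excluded 1-4, excluded 2-2 and desert 2-3.

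Among the changes of the cluster (88571259 to 88850606) that could be tested, those called lower were frequent in culture. Of the 15 tested with a culture mean of at least 0.65, 13 were called lower. Of the 13 below it 0 were called lower, although 12 of those 13 had a negative difference. The median of the 13 below it was -0.377 on the log2 scale, against -1.10 for the 15 and -0.00515 for all 258. The cut lies just under the lowest called change, Ifna6 Y153F (culture mean 0.684), and was not set before the data were seen. This split therefore describes the calls and does not test them. Only changes called in all 8 libraries were tested, so a rarer change that fell further could lose a call and leave the set. With missing calls allowed, cluster changes below 0.65 were also called lower. These were Ifna11 Q115L, Ifna11 F108V and Ifna14 K145T, at culture means of 0.348, 0.372 and 0.196 (limma adjusted p = 2.58e-05, 0.00131 and 0.00883). The 10 cluster changes with a culture mean of at least 0.9 had median ratios of 0.115, 0.131, 0.266, 0.124 and 0.350. The 5 of the chromosome 4 block outside the cluster, in Zfp352, a zinc finger gene, and Dmrta1, which encodes a DM-domain transcription factor, had 0.251, 0.262, 0.468, 0.266 and 0.616, near the tumours' overall ratios. With each tumour's ratio taken within the cluster, a setting chosen after the data were seen, 8 of the 13 were still lower, in Ifna11, Ifna7 and Ifna1, and those of Ifna6, Ifnab and Ifna2 no longer passed. A single ratio per tumour takes the copy number of the cell line, relative to that of the host cells, to be alike in every region. It also takes that number to be the same in tumours and culture, and neither was measured here.

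The sequence of these genes limits the reading. Of the 103 single-base variants of the cluster, 37 lie in a 29-base window whose alternate form is found at another place of GRCm38, against 12 of 487 outside it, and for the 28 tested in the cluster it was 8. Ifna11 S76A, for example, has its window in Ifna2. Of the other 245 variants tested, 14 were called lower, with Ifna11 A92T, Ifna7 K180N, Ifna1 L14M and Ifna6 S186N among them. Of these 245, 240 were single-base variants that lie in no such window. The rest were insertions or deletions, which were not searched. All 13 lower variants of the cluster have a known mouse polymorphism number, as have 150 of the 258 variants tested (58.1%), and the part of shared reads in the result was not tested.

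**Figure D2:**
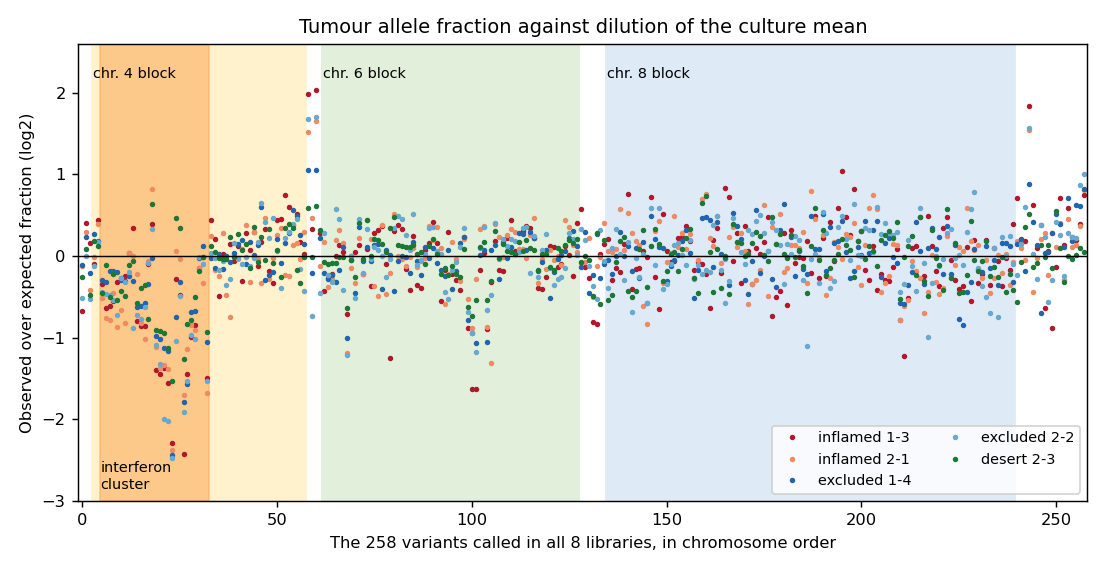
Observed over expected fraction on a log2 scale (vertical axis) of the 258 variants called in all 8 libraries, in chromosome order (horizontal axis), 1 point per variant and tumour, coloured by tumour. The orange span inside the chromosome 4 block is the interferon cluster with its 28 tested variants. The 13 of them that were called, which are not marked, lie below 0 in all 5 tumours, while others, such as Ifna7 Q126E, do not. A short run in the chromosome 6 block (Smco2) also drops, and the points near 2 just before that block are Arap2 and Hebp1.

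On chromosome 6, 4 changes of Smco2, which encodes a membrane protein with a coiled coil, and 1 of Casc1, which encodes an axonemal dynein protein, were called lower, and no other variant of the block that was tested passed. Smco2 R76S (position 146852656) had 1.00, 0.962 and 0.981 in culture and 0.0779, 0.157, 0.243, 0.141 and 0.369 in inflamed 1-3, inflamed 2-1, excluded 1-4, excluded 2-2 and desert 2-3 (scaled difference -0.490, limma adjusted p = 1.28e-05, standard error 0.0600). Smco2 S87L had 0.0779, 0.238, 0.224, 0.120 and 0.423 in the tumours, R69L had 0.133 to 0.407 and T219N 0.129 to 0.424, against 0.968 to 1.00 in culture for all 3. Casc1 S60N (position 145202953) had 1.00 in each culture library and 0.151, 0.129, 0.237, 0.120 and 0.402 in the tumours (scaled difference -0.476, limma adjusted p = 1.38e-05). The other 4 Smco2 variants tested did not pass, nor did any of the 13 tested in Arntl2, a circadian clock transcription factor that ends upstream of Smco2, where the median observed fraction was 0.891 to 1.02 times the expected one, or the 7 in Mansc4 (0.840 to 1.01). Not passing does not make them equal to culture, since Arntl2 S479N and Mansc4 M320V also lay below the lowest culture library in 5 of 5 tumours (limma adjusted p = 0.0957 and 0.0997). None of the 5 lower changes lies in a window that recurs in the genome. Smco2 R69L, R76S and S87L lie within a read length of each other, so they are not separate results.

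Mylk3, the gene of a heart myosin light chain kinase, carried 20 variants, the most of any gene. Its W192R change (chromosome 8, position 85360486) had 0.327, 0.345 and 0.370 in culture and 0.0495, 0.0595, 0.111, 0.0710 and 0.152 in the tumours, a scaled difference of -0.121 (limma adjusted p = 0.00995) that lost the threshold without culture 2-B (adjusted p = 0.0741). The other 14 variants of Mylk3 that were tested did not pass.

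**Figure D3:**
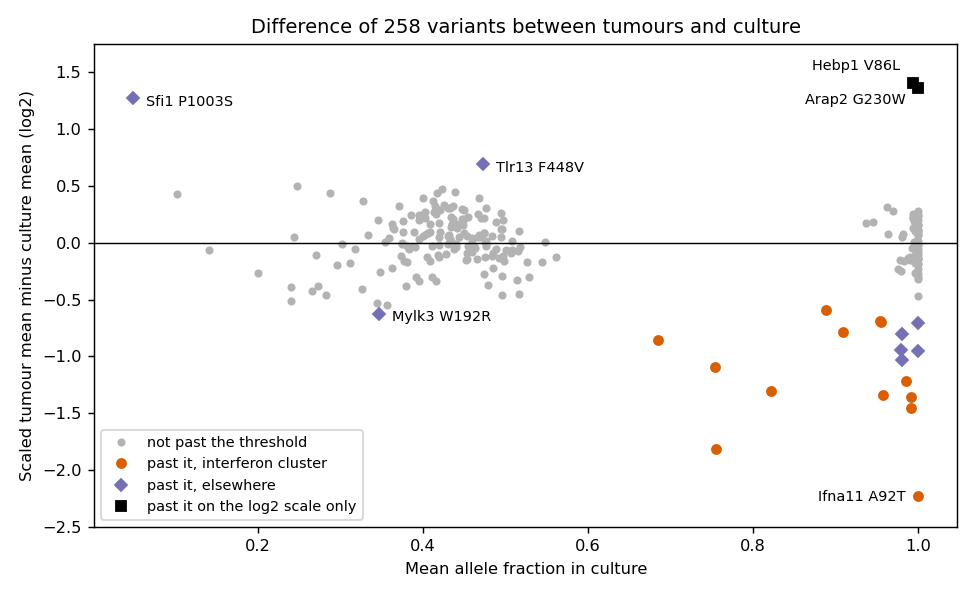
Difference between the scaled tumour mean and the culture mean on a log2 scale (vertical axis) against the mean allele fraction in culture (horizontal axis) for the 258 variants, 1 point each, marked by the limma call. The orange points, 13 variants of the interferon cluster, lie below 0 at culture means above 0.65, and Arap2 and Hebp1 stand at 1.36 and 1.41.

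Of the 2 variants called higher, Tlr13 F448V (chromosome X, position 106158000), in an endosomal sensor of bacterial ribosomal RNA, had 0.494, 0.425 and 0.500 in culture and 0.196, 0.246, 0.398, 0.264 and 0.307 in the tumours. These fractions were 1.69, 1.76, 1.77, 2.01 and 1.03 times the expected ones (scaled difference 0.307, limma adjusted p = 0.0170). Tlr13 was the only gene on chromosome X among the variants tested, so the ratio came from autosomal positions. The mice were male, so their cells carry 1 X chromosome and that ratio need not hold there. The number of X chromosomes in the cell line was not measured here. Sfi1 P1003S (chromosome 11, position 3134654), in a centrin-binding protein of the centrosome, had 0.0494, 0.0437 and 0.0537 in culture and 0.0431, 0.0421, 0.0429, 0.0402 and 0.0440 in the tumours. Its fraction was thus nearly the same in all 8 libraries, with 0.0182 listed for the spleen, and the scaled difference was 0.0756 (limma adjusted p = 0.0201). The count of higher variants was 0 without culture 2, culture 2-B or excluded 2-2, 1 without culture 1-B, 5 without inflamed 1-3, 4 without excluded 1-4 or desert 2-3, and 11 with weights for the unequal spread of culture and tumours. With the ratio taken within each segment neither Tlr13 F448V nor Sfi1 P1003S passed (limma adjusted p = 0.0561 and 0.0539).

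Next, calls were followed by presence. Of the 621 variants 258 were called in all 5 tumours, 174 in 1 to 4 and 189 in none. The share called rose with the expected fraction up to 0.15. It was 3.55% to 7.38% per tumour at an expected fraction under 0.025 and 68.8% to 85.2% from 0.1 to 0.15. Of the variants expected at 0.1 or more, inflamed 1-3 held 76.8% (Wilson 95% interval 71.7 to 81.3), inflamed 2-1 78.8% (74.2 to 82.7), excluded 1-4 85.5% (81.7 to 88.6), excluded 2-2 77.3% (72.6 to 81.4) and desert 2-3 89.4% (86 to 92). The absent ones were spread unevenly, with 24% to 66% of those expected in the interferon cluster uncalled in a tumour, against 7.55% to 16.5% outside it. The band from 0.15 to 0.2 held 14, 28 and 18 variants in inflamed 1-3, inflamed 2-1 and excluded 2-2. Its share called there, 21.4% to 57.1%, was below that of the band before it. From 0.2 to 0.3 these tumours held 78.9%, 73.9% and 75.4%, still below their 80.1%, 85.2% and 82.0% from 0.1 to 0.15. Excluded 1-4 and desert 2-3 held 88.2% and 93.4% from 0.2 to 0.3, and 81.0% and 88.6% at 0.3 or more.

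**Figure D4:**
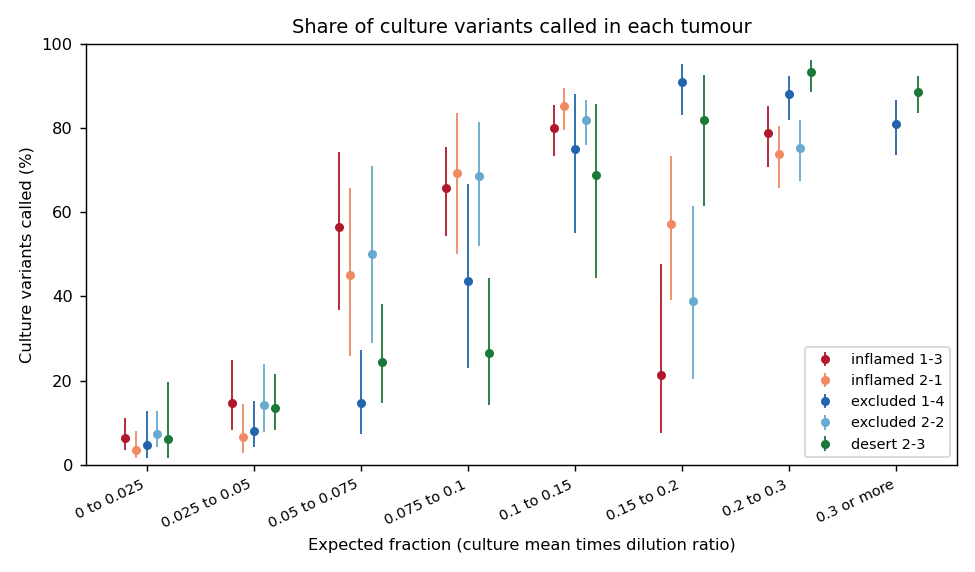
Share of culture variants called in each tumour (vertical axis, percent, with Wilson 95% intervals) against the expected fraction in bands (horizontal axis), coloured by tumour. The share rises from at most 7.38% in the lowest band to 75% or more from 0.1 to 0.15 in 4 tumours and 68.8% in desert 2-3, and dips from 0.15 to 0.2 in the 3 tumours with the lowest ratios.

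At an expected fraction of 0.1 or more in all 5 tumours, 298 variants remained, of which 199 were called in all 5, 80 in 1 to 4 and 19 in none. Of the 19, 14 lay in the interferon cluster, where 49 of the 298 were, and 5 outside it. Gm13271 R179*, a stop gained (chromosome 4, position 88755402), and the Gm16686 changes I57F and A56G, at neighbouring positions, had 1.00 in all 3 culture libraries and no call in any tumour. The others of the 10 highest were Ifna7 D101N, S103T and G102A, Ifna6 L63*, Ifna1 A174T, Mrps35 T11S, in a protein of the mitochondrial ribosome, and Ccdc91 G324E. Mrps35 T11S (chromosome 6, position 147042826) and Ccdc91 G324E (chromosome 6, position 147592082) also had 1.00 in all 3 culture libraries, and 2 other Mrps35 variants and 2 other Ccdc91 variants were called in all 5 tumours. Ifna7 D101N and Ifna6 L63* rested on 1 culture library each. With variants called in all 3 culture libraries only, 7 of 275 were absent from every tumour, and without desert 2-3, the tumour with the most calls, 34 of 298. Whether reads covered these positions in the tumours is not given.

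Per gene, all variants were kept in all 5 tumours in 75 genes (124 variants), none was kept in any tumour in 129 genes, and 100 genes were mixed. Of the 129, 128 carried 1 variant, and their median culture fraction was 0.0667, against 0.468 in the 75. Among the genes with the most variants, Mylk3 kept 17 to 20 of 20 per tumour, Arntl2 14 or 15 of 15, and Smco2 9 or 10 of 10. Tm7sf3, which also had 10, kept 8 to 10. Over all 621 variants the tumours kept 49.9% to 64.3%. Of the interferon genes with 10 or more variants, the tumours kept 8 to 11 of 15 for Ifna11, 2 to 8 of 14 for Ifna6, 4 to 10 of 14 for Ifna7, 2 to 10 of 13 for Ifna1 and 2 to 6 of 10 for Ifna9. Fbxo22, an F-box gene with a median culture fraction of 0.106, kept 1 to 6 of 11, and Gm10800, at a median of 0.0252, kept 0 to 2 of 10. Mansc4 kept all 7 in every tumour.

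By effect class, the tumours kept 48.9% to 61.2% of the 503 missense variants, 65.1% to 87.2% of the 86 splice-region variants and 4.55% to 36.4% of the 22 stop, frameshift and splice-site variants. The classes differed in culture as well, at median fractions of 0.386, 0.472 and 0.126. At a culture mean of at least 0.25 the missense and splice-region shares came close, at 76.4% to 90.1% of 292 and 70.9% to 92.4% of 79, while 1 to 5 of the 8 stop, frameshift and splice-site variants were kept in a tumour (12.5% to 62.5%). Insertions and deletions were kept less than single-base variants in each tumour, with 7 to 19 of 31 against 303 to 380 of 590. Among single-base variants alone, the stop and splice-site share was 0.868% ± 0.263 (SD, n = 3) of the culture calls and 0.117% ± 0.162 (SD, n = 5) of the tumour calls.

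**Figure D5:**
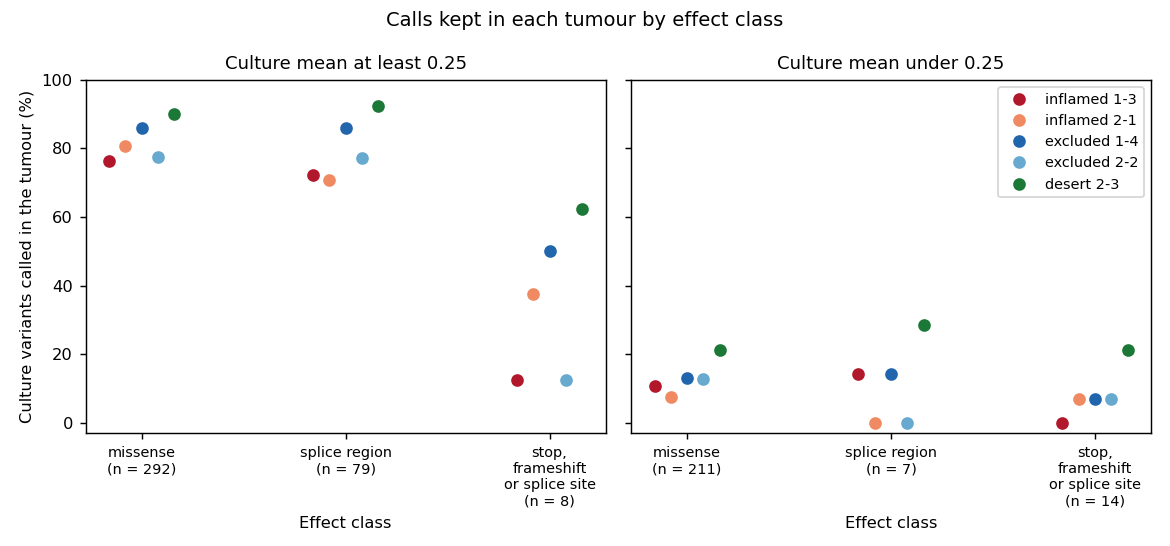
Share of culture variants called in each tumour (vertical axis, percent) by effect class (horizontal axis), at a culture mean of at least 0.25 (left) and below it (right), 1 point per tumour. Missense and splice-region shares overlap on the left, and stop, frameshift and splice-site variants lie lower there, at 12.5% to 62.5% of 8.

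Of the 22 stop, frameshift and splice-site variants, 8 were called in at least 1 tumour. The frameshift E87fs of Gm12666 was the only one called in all 5, with 0.390, 0.455 and 0.456 in culture and 0.130, 0.166, 0.193, 0.120 and 0.302 in inflamed 1-3, inflamed 2-1, excluded 1-4, excluded 2-2 and desert 2-3, or 0.931 to 1.30 times the expected fraction. A splice-site insertion in Fbxw9, an F-box gene, and the frameshift E56fs of Gm3072 were each called in inflamed 2-1, excluded 1-4 and desert 2-3, at 0.866 to 1.32 times the expected fraction. A deletion in Adcy7, an adenylate cyclase gene, was called in excluded 1-4, excluded 2-2 and desert 2-3 at 0.0465 to 0.125, and a splice-site deletion in Crnde, a long non-coding RNA, in excluded 1-4 and desert 2-3 at 0.184 and 0.234. Fbxo22 R95* was called in inflamed 2-1 and desert 2-3 at 0.0545 and 0.0721, the Asun frameshift in desert 2-3 at 0.714 and the Rps2-ps6 frameshift there at 0.136. Where they were called, these variants lay at 0.866 to 1.88 times the expected fraction. A fraction too low to be called gives no ratio, and 14 of the 22 had no call in any tumour. The range therefore does not show at what level the class was carried.

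Of the gene lists, that of the type I interferon ligands held the most variants. Of 18 type I interferon ligand genes 10 carried 96 variants; all 5 tumours held 27 of these and no tumour held 25, where over all 621 variants these shares were 41.5% and 30.4%. In the fit, 13 of those 27 were lower, against 7.36% of all variants tested, and 0 higher, with a median log2 difference of -0.53 against -0.00515 for all 258 variants tested. Several of the 13 lie within a read length of each other, so they are not independent results. Of 24 genes of interferon receptors and signalling and 22 of cell death, 0 carried a variant. Calr, which helps to load peptides on MHC class I and is the only 1 of 24 antigen presentation genes with a variant, had a change near a splice site at 0.421, 0.420 and 0.434 in culture and 0.1, 0.161, 0.292, 0.164 and 0.350 in the tumours, or 0.957 to 1.44 times the expected fraction (log2 difference 0.34, not past the threshold). Among 20 innate sensors, Tlr2 D199N was called at 0.0667 in 1 culture library and in no tumour. Nod2, a sensor of bacterial peptidoglycan, carried 5 variants, of which T227A was kept in desert 2-3 alone (0.536, 0.516 and 0.569 in culture, 0.292 there), Q255R in no tumour, and the other 3 in 3 or 4 tumours. Among 30 pancreatic cancer genes, Arid1a V1566I, in a subunit of the SWI/SNF complex, was kept in 4 tumours at 1.43 to 2.72 times the expected fraction, with 0.300, 0.324 and 0.526 in culture, and Myc T373A in none, at an expected fraction of 0.0262 to 0.0667.

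Between groups of libraries, 5 measures were compared by an exact permutation test over the 56 assignments of 5 of 8 libraries (two-sided, smallest possible p = 0.0357), and for all 5 the culture and tumour libraries did not overlap. Calls per library averaged 518 ± 27.6 (SD, n = 3) for culture against 342 ± 37.2 (SD, n = 5) for tumours, a direction that the filter favours, since only variants seen in the cell line were kept in tumours while culture libraries could hold calls of their own. The median fraction fell from 0.424 ± 0.00360 (SD, n = 3) to 0.182 ± 0.0680 (SD, n = 5). Missense changes made up 80.0% ± 0.171 (SD, n = 3) of culture calls but 78.2% ± 0.979 (SD, n = 5) of tumour calls, and that of stop, frameshift and splice-site calls 2.5% ± 0.370 and 1.12% ± 0.663. A culture library held 82.3% ± 4.52 (SD, n = 3) of the variants called in the other 2, and a tumour 58.6% ± 6.32 (SD, n = 5) of those called in a pair of culture libraries. Each difference had an exact permutation p of 0.0357 (0.0357 after Benjamini-Hochberg adjustment over the 5). All 5 measures rest on the same calls, so they are not separate results, and host DNA in a biopsy lowers the median fraction. Of the 189 variants called in no tumour, 164 were missense and 14 stop, frameshift or splice-site changes, and their absence lowers both shares. The part of dilution in these differences was not tested. The missense share did not pass with tier 1 calls alone (adjusted exact p = 0.107).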

How the data were processed

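Whole exomes of cultured KPP-eGFP cells and STAMP tumours were sequenced by the authors as 2 × 75 base reads, mapped to GRCm38 with BWA, processed after GATK best practices and called with Strelka against spleen DNA (versions not given in the sources used here). Per the labels, the extraction text describes RNA, although the molecule is genomic DNA. The deposited values are the variant allele fraction of each call, the fraction in the spleen, and the caller's tier, given as a score of 1 or 2, without read depth. Of the columns of values, 7 were not used.

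Variants were matched by position and bases. Tumour fractions were divided by the dilution ratio and compared with culture by limma 3.58.1 (lmFit and eBayes with trend, R 4.3.3) for the 258 variants with a call in each of the 8 libraries, at a Benjamini-Hochberg threshold of 0.05. A trial of the fit on simulated data gave tumours a smaller log2 spread than they had here around the expected fraction (SD 0.342 to 0.553). It also held no missed calls, so it does not show how far the calls made here hold. Effect classes took the most severe annotation, locations GENCODE, and 29-base windows were searched on both strands of GRCm38 (Python 3.11, numpy 2.4.6, pandas 2.3.3, scipy 1.17.1, numba 0.67.0, matplotlib 3.10.9).

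Members, gene lists and tests were chosen with earlier results of these data known. Named are variants past the limma threshold, the 10 of highest culture mean absent from all tumours, the 10 genes with most variants, stop, frameshift and splice-site variants called in a tumour, and list genes with a variant. Any other gene was picked with its values in view, and 1 further cancer gene is not reported here. Alternatives were other scalings, scales, weights and variant sets, leaving out each library in turn, and a replicate block.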

Additional observations from a re-analysis of the deposited data

Results flagged for a closer look

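Of 32 sets of 5 tumour values, 2 held a tumour far from the other 4 by Dixon's criterion, which flags about 1 in 20 sets by chance. The observed over expected fraction of Ifna11 A92T was 0.346 in desert 2-3 and 0.180 to 0.205 in the other tumours. Desert 2-3 also had 23 calls of genotype 1/1, 18 of them in the chromosome 6 block, against 2 in each other tumour, and these calls had fractions of 0.702 or more. The dilution ratio of this tumour was the highest of the 5, at 0.627.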

How the results depend on the processing

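The count of variants lower in the tumours was 19, and 255 without scaling, 32 with variants called in at least 2 culture libraries and 3 tumours, 12 with tier 1 calls alone, and 18 to 26 when 1 library was left out. The count of higher variants was 2, and 0 without scaling, 4 on the log2 scale, 11 with weights, 4 with missing calls allowed, 1 with tier 1 calls, 1 with the ratio taken within each segment, and 0 to 5 when 1 library was left out. On the log2 scale these counts were 16 to 23 and 3 to 6 without 1 library. With a replicate block the counts were 20 lower and 2 higher. Deviations from the tumour mean correlated at -0.23 to -0.18 between same-numbered tumours and at -0.49 to 0.037 between differently numbered ones. Taking out the mean of 5 tumours makes such correlations negative on average, so they do not tell whether the numbers pair the tumours. Without scaling the differences turned to -0.00648 in Sfi1 P1003S, -0.0709 in Arap2 G230W, -0.0412 in Hebp1 V86L and -0.191 in Tlr13 F448V, and within the cluster that of Ifna2 T19I turned to 0.0385. The count of variants expected in all tumours and called in none was 7 with calls in all 3 culture libraries and 15 to 34 when 1 library was left out, highest without desert 2-3. Leaving out 1 library gave differences of -189 to -162 calls, -0.267 to -0.228 in the median fraction, -2.09 to -1.55 points in the missense share, -1.60 to -1.18 in the stop, frameshift and splice-site share and -26.0 to -22.2 in the share held (not computed without a culture library), where the smallest exact p is 0.0571 or 0.0952, so none could pass; the missense difference was -1.30 with tier 1 calls alone. Dilution ratios moved by more than their spread over culture in 13 of 20 alternatives, and outside the blocks that of inflamed 1-3 was 0.283 in place of 0.246. Read depth, and with it the error of a single fraction, stays unknown.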

Other observations

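Allowing missing calls brought more variants into the fit and called 13 of the added ones lower, 10 in the interferon cluster, and 2 higher. In Ifna1, F108V had 0.923, 0.818 and 0.864 in culture and 0.0381, 0.0602, 0.0289 and 0.141 in the 4 tumours that called it (scaled difference -0.722, limma adjusted p = 2.33e-06), and R36K, A37T, A37V and T102A of the same gene had differences of -0.812 to -0.713. Of these Ifna1 changes, R36K, A37T and A37V lie within a read length of each other, so they are not separate results. Ifna7 T145I, Ifna14 K145T and Gm16686 G48E were also lower, as were Ifna11 F108V and Q115L. Outside the cluster, splice-region changes of Lrmp and Ppfibp1 on chromosome 6 had differences of -0.592 and -0.274, and Smco2 L78dup, an in-frame change, -0.130. Robo1 Y1034H, in a receptor of axon guidance, was called in 4 tumours at 0.0351 to 0.0932 against 0.0707 to 0.118 in culture (scaled difference 0.0662, limma adjusted p = 0.0233), and Gm6625 L62S in 3 tumours at 0.238 to 0.500. A tumour in which the call is missing adds no value here.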
